A study of Mus musculus with 5 samples.

Results

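Amino acid transporters were followed in mouse embryonic stem (ES) cells, wild-type cells being set against Dicer-deficient ones. The members are the genes whose symbol begins with Slc1a, Slc3a, Slc6a, Slc7a, Slc36a, Slc38a or Slc43a followed by a digit, read from probe sets that carry exactly 1 gene symbol. They number 64 of 19939 genes tested. The rule reads names and not signals, though it was chosen with earlier results of these data known. Of the 64, 62 are carriers or carrier subunits, and the other 2, Slc6a19os and Slc7a6os, are genes on the opposite strand that share only the name. The rule also takes in carriers of amines, GABA, taurine, betaine and creatine, which belong to the SLC6 family. All 64 were tested, with no filter on low signal.

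The wild-type group had 3 arrays and the Dicer-deficient group, titled KO, had 2, each of total RNA from an asynchronous culture that the series' design text describes as a biological replicate. Both genotypes grew without feeder cells in an equal mixture of serum plus LIF medium and N2B27+2i medium, and the sources used here give no cell line, clone or age. The loss of Dicer and any other way in which the 2 kinds of cell differ cannot be told apart. Early G1 cultures and a further asynchronous Dicer-deficient culture that the design text mentions were not analysed here. Dicer cuts microRNA precursors into mature microRNAs, and its own transcript Dicer1 read 8.84, 8.82 and 8.85 on the wild-type arrays against 7.20 and 6.84 on the Dicer-deficient ones, a change of -1.82 (limma adjusted p = 0.000129). The sources used here do not say which part of the gene was removed, so the fall tests the labels only where the probe set covers it.

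Amino acids do not cross the plasma membrane unaided, and each carrier family moves its own range of them. Most SLC7 light chains work as exchangers only when joined to an SLC3 heavy chain. The Slc7a5 to Slc3a2 pair brings in leucine and other large neutral amino acids while letting glutamine out. Slc1a5 and the sodium-coupled SLC38 carriers load the cell with glutamine and other small neutral amino acids, the cationic SLC7 carriers bring in arginine and lysine, and the SLC43 carriers let branched-chain amino acids pass down their gradient. Many of these genes are transcribed more when the stress factor ATF4 is active.

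Values are deposited signals read here as log2, a base the sources do not give, so a difference of 1 is taken as 2-fold. A change is the Dicer-deficient mean minus the wild-type mean. A gene was called when its adjusted p in limma, over all 19939 genes, lay below 0.05. Of the 64 members, 11 fell, 2 rose and 51 did not pass. Over all genes tested 8.60% were called lower and 8.48% higher, and 17.1% in either direction. The members' median change was 0.00, against 0.01 over all genes tested. The calls lay almost wholly among members whose mean over the 5 arrays reached 5.40, the probe-set median, that is, the median over all probe sets of their means. There 10 of 26 fell and 2 rose, where 14.4% of all such genes were called lower, 13.5% higher and 27.9% in either direction. Below it, 1 of 38 was called, against 3.23% of all such genes. Without the opposite-strand genes the counts were 10 lower and 2 higher of 62. No called member changed by as much as 2-fold, and 0.757% of all genes tested fell by that much with a call. Array number limits the precision of every value.

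**Figure D1:**
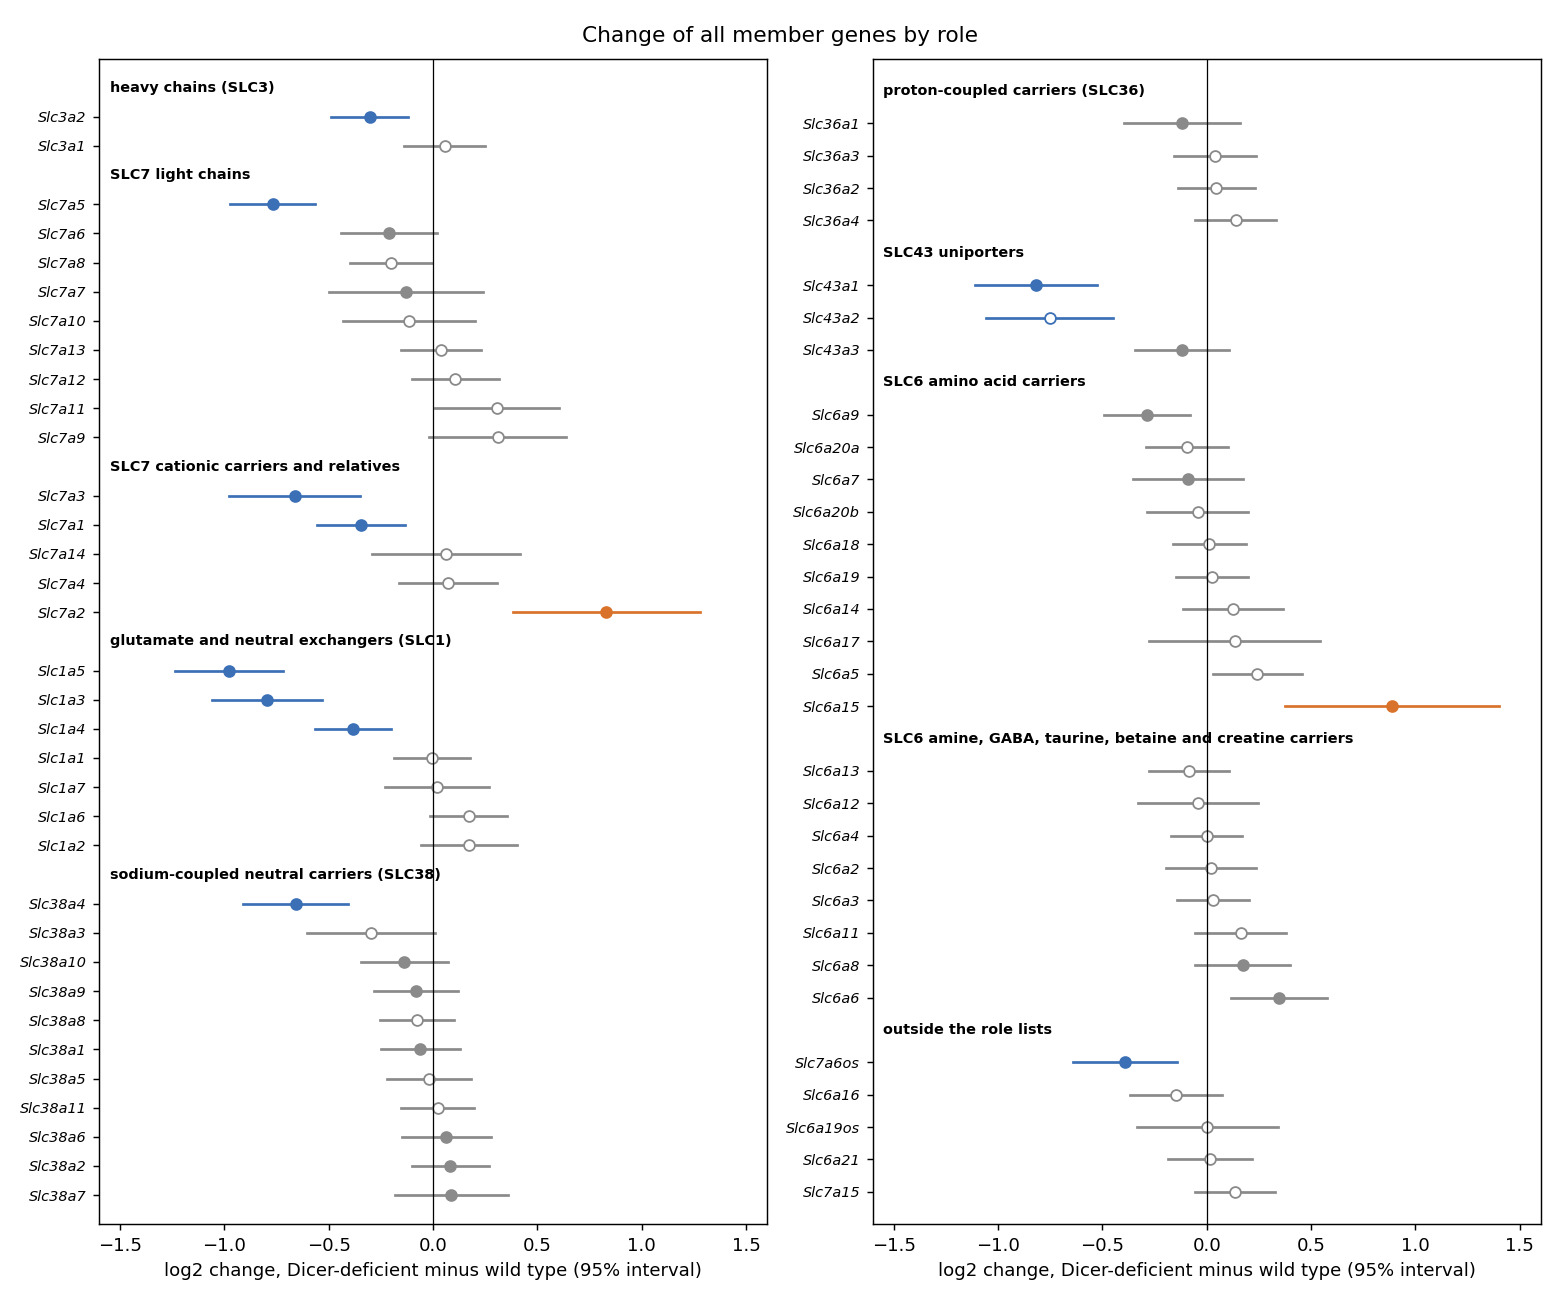
Log2 change (Dicer-deficient minus wild type, horizontal axis) of each of the 64 members, grouped by role, with its 95% interval from limma as a line. Blue marks genes called lower, orange genes called higher and grey genes that did not pass, and open circles mark genes of dim mean signal, under the probe-set median. The 11 blue points lie between -0.98 and -0.30, and the 2 orange ones, Slc7a2 and Slc6a15, at 0.83 and 0.89.

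Among the heterodimeric exchangers, Slc7a5 and its heavy chain Slc3a2 fell. Slc7a5 (LAT1) read 10.35, 10.25 and 10.19 in wild-type cells and 9.56 and 9.43 in Dicer-deficient cells. Both Dicer-deficient arrays lay below every wild-type array, a level 1.70-fold lower (change -0.77, SE 0.0875, limma adjusted p = 0.00119). Slc3a2 (4F2hc, also CD98), the heavy chain that carries Slc7a5 and several other light chains to the membrane, read 11.27, 11.19 and 11.30 against 10.91 and 10.99. The groups again did not overlap, but the step was smaller, 1.23-fold (change -0.30, SE 0.0797, limma adjusted p = 0.0381). The call of Slc3a2 was lost without any 1 of the 5 arrays (adjusted p from 0.0722 to 0.197), and that of Slc7a5 was kept in each case (largest adjusted p 0.0395).

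The other 8 light chains did not pass. Slc7a6 (y+LAT2), which exchanges cationic for neutral amino acids, changed by -0.21 (95% interval -0.44 to 0.02, limma adjusted p = 0.222), and its relative Slc7a7 (y+LAT1) by -0.13, with an interval of -0.50 to 0.24. Slc7a7 read 7.42 and 7.89 on the 2 Dicer-deficient arrays, one below and one within the wild-type range of 7.63 to 7.99. Slc7a11 (xCT), the cystine importer that feeds glutathione synthesis, read 4.57, 4.71 and 4.80 against 4.81 and 5.19. Its change of 0.31 did not pass (interval 0.01 to 0.60, limma adjusted p = 0.166), it was 0.12 without Dicer-deficient array 2 and 0.50 without Dicer-deficient array 1, and its signals were dim, under the probe-set median on every array. Slc7a8 (LAT2), Slc7a9, Slc7a10, Slc7a12 and Slc7a13 had mean signals of 3.20 to 5.30, under the probe-set median, and changes from -0.20 to 0.31. Slc3a1, the heavy chain of the kidney carrier Slc7a9, read 4.40 to 4.57 in wild-type cells and 4.55 on both Dicer-deficient arrays.

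The cationic carriers moved in both directions. Slc7a3 (CAT3) read 10.89, 10.71 and 10.49 in wild-type cells and 9.90 and 10.17 in Dicer-deficient cells, 1.58-fold lower with no overlap (change -0.66, SE 0.135, limma adjusted p = 0.0141). Slc7a1 (CAT1), the widely expressed arginine and lysine importer, read 8.71, 8.55 and 8.49 against 8.24 on both Dicer-deficient arrays (change -0.34, SE 0.0902, limma adjusted p = 0.0382). In contrast Slc7a2 (CAT2) read 4.77, 5.30 and 5.24 in wild-type cells, under the probe-set median, and 6.18 and 5.69 in Dicer-deficient cells. Its groups stood apart the other way (change 0.83, SE 0.193, limma adjusted p = 0.0236), and since the wild-type signals were not shown to be above background no fold is given. Slc7a4 and Slc7a14, relatives with less certain substrates, had changes of 0.07 and 0.06. Leaving out wild-type array 1 or 2, or either Dicer-deficient array, ended the calls of Slc7a3 (adjusted p from 0.0582 to 0.197) and Slc7a1 (0.0860 to 0.206). Slc7a2 lost it without any 1 of the 5 arrays (0.0695 to 0.275).

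Of the 7 SLC1 carriers 3 fell and 0 rose in limma, against 8.60% of all genes tested called lower. Among the 3 was the member with the largest fall. Slc1a5 (ASCT2), an exchanger that imports glutamine, read 10.13, 10.17 and 10.10 in wild-type cells and 8.98 and 9.33 in Dicer-deficient cells. The Dicer-deficient arrays lay well below a tight wild-type group, a 1.97-fold lower level (change -0.98, SE 0.111, limma adjusted p = 0.00118) that was still called when each array was left out (largest adjusted p 0.0260). Slc1a4 (ASCT1), which exchanges alanine, serine, cysteine and threonine, read 7.63, 7.69 and 7.71 against 7.25 and 7.34, 1.30-fold lower (change -0.38, SE 0.0782, limma adjusted p = 0.0145). Slc1a3 (GLAST), a glutamate and aspartate importer best known from glia, read 6.24, 6.03 and 6.39 against 5.47 and 5.38 (change -0.80, SE 0.114, limma adjusted p = 0.00315). Its Dicer-deficient signals lay close to the probe-set median, so the size of its fall is uncertain. Without either Dicer-deficient array the calls of Slc1a3 (adjusted p from 0.0727 to 0.0857) and Slc1a4 were lost, and that of Slc1a4 also without wild-type array 2 (0.0684 to 0.113). The glutamate carriers Slc1a1, Slc1a2, Slc1a6 and Slc1a7 had mean signals of 4.50 to 4.79 and changes from -0.01 to 0.17.

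**Figure D2:**
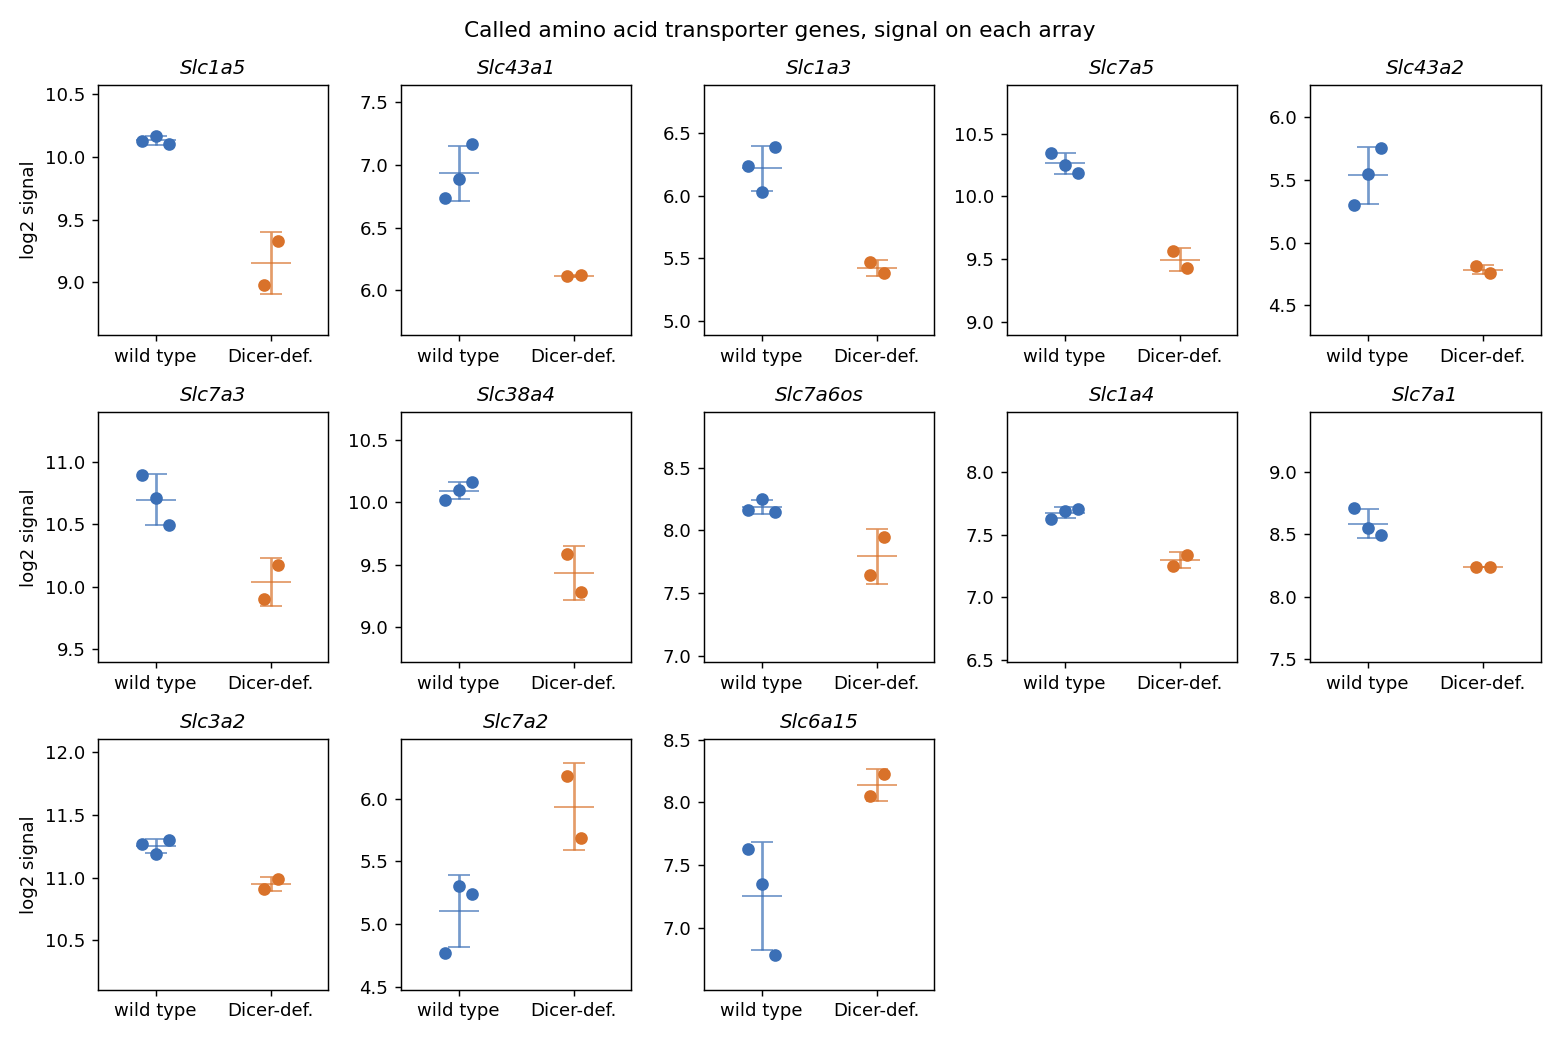
Log2 signal (vertical axis, 2 units high in every panel) of the 13 called members on each array, with blue points for the 3 wild-type arrays, orange points for the 2 Dicer-deficient arrays, and bars for the group mean and its SD. The groups are apart in every panel. The wild-type points are closest together for Slc1a5 (10.10 to 10.17) and farthest apart for Slc6a15 (6.78 to 7.63).

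Over all genes tested 8.60% were called lower, and of the 11 sodium-coupled SLC38 carriers 1 fell and 0 rose in limma. This was Slc38a4 (SNAT4), an amino acid carrier of placenta and liver that is imprinted in the mouse, with 10.02, 10.10 and 10.16 in wild-type cells and 9.59 and 9.28 in Dicer-deficient cells. It was 1.58-fold lower with no overlap (change -0.66, SE 0.108, limma adjusted p = 0.00567), and its call was lost without Dicer-deficient array 2 (adjusted p = 0.0656, change -0.50). On chromosome 15 Slc38a1, Slc38a2 and Slc38a4 follow each other with 0 protein-coding genes between them in the GRCm38.p6 gene table. The neighbours are the glutamine carriers of system A that many growing cells use. Slc38a1 (SNAT1) read 9.56, 9.41 and 9.44 against 9.40 and 9.42, a change of -0.06 with a 95% interval of -0.25 to 0.13, and a second probe set of the gene gave -0.27. Slc38a2 (SNAT2) read 10.54, 10.43 and 10.43 against 10.55 on both arrays, a change of 0.08 (interval -0.10 to 0.27, limma adjusted p = 0.599). Whether the change of Slc38a4 differed from those of its neighbours was not tested. Slc38a9, the lysosomal arginine sensor of mTORC1, changed by -0.08 (interval -0.28 to 0.12), and its second probe set by -0.11. The lysosomal Slc38a7 and the less studied Slc38a6 and Slc38a10 changed by 0.09, 0.07 and -0.14. Slc38a3, Slc38a5, Slc38a8 and Slc38a11 had mean signals of 3.70 to 5.34, under the probe-set median, and did not pass.

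Of the 3 SLC43 genes 2 fell and 0 rose in limma, against 8.60% of all genes tested called lower. Slc43a1 (LAT3), a uniporter for branched-chain amino acids and phenylalanine, read 6.74, 6.89 and 7.17 in wild-type cells and 6.11 and 6.12 in Dicer-deficient cells, 1.76-fold lower (change -0.82, SE 0.126, limma adjusted p = 0.00427). Slc43a2 (LAT4), with like substrates, read 5.30, 5.55 and 5.76 against 4.81 and 4.76 (change -0.75, SE 0.131, limma adjusted p = 0.00726). In both genes the Dicer-deficient arrays nearly coincided and the wild-type arrays spread over about 0.4 to 0.5. Slc43a2 was the called member whose mean was under the probe-set median, so no fold is given. Slc43a3, which carries purine nucleobases and not amino acids, changed by -0.12 (95% interval -0.34 to 0.11), and 1 protein-coding gene lies between it and Slc43a1 on chromosome 2. Without either Dicer-deficient array the calls of Slc43a1 (adjusted p from 0.0953 to 0.102) and Slc43a2 were lost, and that of Slc43a2 also without wild-type array 2 (0.0562 to 0.131). None of the 4 proton-coupled SLC36 carriers was called in limma. Slc36a1 (PAT1), which exports amino acids from lysosomes, changed by -0.12 (interval -0.40 to 0.16, and 0.05 without Dicer-deficient array 2), and Slc36a2, Slc36a3 and Slc36a4 had mean signals of 4.47 to 4.88.

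In the SLC6 family 1 of 18 carriers with a listed substrate rose and 0 fell in limma, against 8.48% of all genes tested called higher. Slc6a15 (B0AT2), a sodium-coupled importer of branched-chain amino acids and proline, read 7.63, 7.35 and 6.78 in wild-type cells and 8.05 and 8.23 in Dicer-deficient cells. The wild-type arrays differed among themselves by 0.85, almost as much as the change of 0.89 between the groups (SE 0.220, limma adjusted p = 0.0310). Leaving out wild-type array 2 or either Dicer-deficient array ended this call (adjusted p from 0.117 to 0.301). The taurine carrier Slc6a6 read 9.59, 9.40 and 9.34 against 9.85 and 9.73, with a change of 0.35 and limma adjusted p = 0.0515. It passed when the arrays were quantile normalized again (adjusted p = 0.0149), when dim genes were left out (0.0306), with an intensity trend (0.0358) and with array weights (0.0222). The glycine carrier Slc6a9 (GlyT1) read 6.87, 6.71 and 6.70 against 6.52 and 6.43, a change of -0.29 with limma adjusted p = 0.0672. It passed under the same alternatives other than the trend (0.0327, 0.0468 and 0.0494). The creatine carrier Slc6a8 changed by 0.17 (95% interval -0.06 to 0.40). Signals of the other 14 lay between 3.52 and 6.08 on every array, among them those of the broad-range importer Slc6a14 (3.52 to 3.85) and the serotonin carrier Slc6a4 (4.65 to 4.69). Of the 5 members outside the role lists, Slc7a6os fell, with 8.16, 8.25 and 8.15 against 7.64 and 7.95 (change -0.39, limma adjusted p = 0.0424). It lies beside Slc7a6 on chromosome 8, and its call was lost without any 1 of the 5 arrays (adjusted p from 0.0502 to 0.230).

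Most of the 13 member calls did not hold with 1 array fewer. Calls over all genes tested fell too, from 1690 higher and 1714 lower to 972 to 1396 and 769 to 1560 without 1 wild-type array. They were fewer still without a Dicer-deficient array. Of the 13, 2 were kept whichever array was left out (Slc1a5 and Slc7a5) and 3 were lost without any 1 of the 5 (Slc3a2, Slc7a2 and Slc7a6os). Without wild-type array 1, 2 or 3 there remained 8, 5 and 10 of the 13, and 3 and 2 without Dicer-deficient array 1 or 2, where the lone array is taken to vary like the others. Of the members not called with all arrays, Slc7a9, Slc6a5 and Slc6a17, all dim, passed as higher without wild-type array 3 (adjusted p = 0.0194, 0.0447 and 0.0402 in limma). Slc7a9 and Slc6a5 also passed with array weights. Without wild-type array 1 the dim Slc38a3 passed as lower (0.0368) and Slc6a6 as higher (0.0403). Against a change of at least 1.2-fold (limma's treat), 4 of the 13 were kept: Slc1a3, Slc1a5, Slc43a1 and Slc7a5. With treat the calls over all genes tested were 655 higher and 489 lower. Both Dicer-deficient values lay below the wild-type range for 16 members and above it for 12 of the 64. Over all genes tested the shares were 19.9% and 20.0%.

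**Figure D3:**
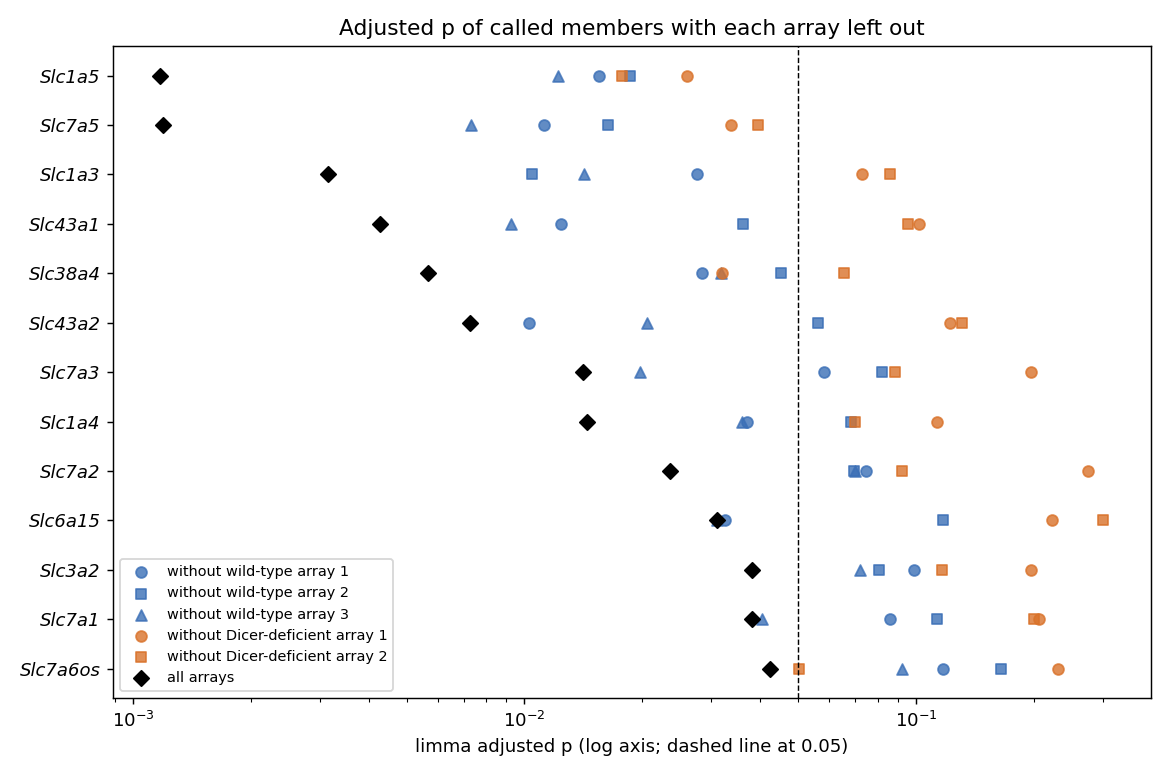
Adjusted p from limma (horizontal axis, log scale, dashed line at 0.05) of the 13 called members with all arrays (black diamonds), without each wild-type array (blue) and without each Dicer-deficient array (orange). Every point of Slc1a5 and Slc7a5 lies left of the line, and for 10 genes both orange points lie right of it.

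Promoter sequences of the members were searched for short motifs, because these genes are known as targets of ATF4 and of growth and oxidative stress factors. RefSeq windows of the GRCm38.p6 build, each from 250 bases before to 50 after a transcription start, matched 47 members, 8 of them called. The called Slc1a5, Slc6a15, Slc7a2, Slc7a3 and Slc7a5 are among those without a window, whose promoters were not searched here. The motif TGATGCAA, the core of the C/EBP-ATF response element, stood on either strand in the windows of 3 of the 47 genes (6.38%), and in those of 1.03% of all 27025 genes with a window. They are the called Slc1a4 and the genes Slc7a11 and Slc7a7, which did not pass. The matches are shown here on the gene's own strand with the motif, or its reverse complement, in capitals.
Slc1a4, chr11:20332684-20332743, minus strand: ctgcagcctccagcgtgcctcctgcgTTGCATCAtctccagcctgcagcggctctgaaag
Slc7a11, chr3:50443627-50443705, minus strand: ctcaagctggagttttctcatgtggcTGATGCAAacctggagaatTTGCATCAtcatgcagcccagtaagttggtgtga
Slc7a7, chr14:54417912-54417971, minus strand: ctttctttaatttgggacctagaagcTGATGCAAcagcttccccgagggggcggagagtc
Slc7a11 held 2 copies, in opposite orientations, whose first bases lie 66 and 47 bases before the start. The copy of Slc1a4 begins 4 bases before its start, and that of Slc7a7 1 base before the start of 1 window. A match describes these letters and is no sign of binding.

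The E-box CACGTG, a site type of MYC proteins, stood in windows of 9 of the 47 members (19.1%) and of 8.09% of all genes, and Slc43a1 was the called one. TGACNNNGC, the core of the antioxidant response element of NRF2, stood in 9 (19.1%) against 13.99% of all genes, with Slc43a1 and Slc7a1 among those called. The motifs do not overlap in the windows printed. The matches of called genes are shown because Slc43a1 alone among the 8 held both motifs.
Slc43a1, E-box, chr2:84840233-84840290, plus strand: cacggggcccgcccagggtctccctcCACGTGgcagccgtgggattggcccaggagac
Slc43a1, antioxidant element core, chr2:84840281-84840341, plus strand: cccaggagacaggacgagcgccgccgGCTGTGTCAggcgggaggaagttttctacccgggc
Slc7a1, antioxidant element core, chr5:148399881-148399941, minus strand: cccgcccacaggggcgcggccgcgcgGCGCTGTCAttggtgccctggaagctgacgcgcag

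The known regulators of transporter genes were read on the same arrays. Of 20 genes for stress kinases, transcription factors, ubiquitin ligases and other stress regulators, 4 rose, 2 fell and 14 did not pass. Their median change was 0.02. All 20 had signals at or above the probe-set median, where 27.9% of all genes were called, so their 6 calls are near that share. Atf4, the transcription factor of the amino acid response, read 9.18, 9.05 and 9.10 in wild-type cells and 8.62 and 8.74 in Dicer-deficient cells (change -0.43, limma adjusted p = 0.0117). Trib3, a pseudokinase induced by ATF4, was 1.63-fold lower, at 8.32 ± 0.161 (SD, n = 3) against 7.615 ± 0.134 (SD, n = 2). The genes that rose were Nedd4, a ubiquitin ligase that removes membrane proteins from the cell surface (change 0.54), the MYC family gene Mycn (0.52), Nfe2l2, which encodes NRF2 (0.42), and Atf5 (0.38). Eif2ak4, the kinase GCN2 that senses uncharged tRNA, changed by 0.03. Without either Dicer-deficient array the calls of Atf4, Trib3 and Mycn were lost (adjusted p from 0.0509 to 0.116). The call of Nfe2l2 was lost without these or wild-type array 2 (0.0592 to 0.130), and that of Atf5 also without wild-type array 1 (0.0662 to 0.151).

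Carriers of amino acids and peptides from other families had 4 genes higher and 2 lower of 20, with a median change of 0.06, against 17.1% of all genes called in either direction. Slc25a12, the aspartate and glutamate carrier of mitochondria, rose from 8.92 ± 0.030 (SD, n = 3) to 9.425 ± 0.318 (SD, n = 2). The lysosomal cysteine importer Mfsd12 and the peptide carriers Slc15a2 and Slc15a4 had changes of 0.30, 0.435 and 0.30. Slc15a2 read 4.10 to 4.72, under the probe-set median on every array, so the size of its change is uncertain. Ctns, the lysosomal cystine exporter, fell by 0.54 and the mitochondrial ornithine carrier Slc25a15 by 0.275. Their adjusted p-values in limma ran from 0.0241 to 0.0474. Leaving out the first or the second wild-type array or Dicer-deficient array 2 ended each of the 6 calls, and leaving out Dicer-deficient array 1 ended each but that of Slc25a12. Those of Ctns, Slc15a4 and Slc25a12 were lost without wild-type array 3 too (adjusted p over these losses from 0.0620 to 0.296).

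Some enzymes that use the imported amino acids changed by more than 2-fold. Of 13 genes of glutathione synthesis and turnover, 4 rose and 1 fell. Of these 13, 11 had mean signals at or above the probe-set median, where 27.9% of all genes were called in either direction. The 2 subunits of glutamate-cysteine ligase rose, Gclm 2.22-fold, with 9.36 ± 0.0902 (SD, n = 3) against 10.515 ± 0.0212 (SD, n = 2), and Gclc by 0.44 on the log2 scale, as did glutathione synthetase Gss (2.19-fold) and glutathione reductase Gsr (1.57-fold). Chac1, which degrades glutathione and is an ATF4 target, fell 1.72-fold (limma adjusted p = 0.00161). Of 14 genes of threonine, glycine, serine and methionine metabolism, 7 fell and 0 rose in limma, with a median of -0.31, and all 14 had signals at or above the probe-set median, where 14.4% of all genes were called lower. Gldc, which cleaves glycine, went from 9.37, 9.46 and 9.66 to 7.46 and 7.51, 4.03-fold lower (limma adjusted p = 6.19e-05). Shmt1, which interconverts serine and glycine, was 2.68-fold lower, Phgdh of serine synthesis 2.25-fold lower and Cbs, of the route from homocysteine to cysteine, 1.54-fold lower. In the list of glutamine, glutamate and aspartate enzymes, 3 of 11 fell and 1 rose. All 11 had mean signals at or above the probe-set median, where the share called was 27.9%. Aldh18a1, the first enzyme of proline synthesis, was 1.77-fold lower, Prodh, which degrades proline, 1.58-fold lower, Got2 1.27-fold lower, and Oat, which turns ornithine into a proline precursor, 1.85-fold higher. Among arginine, polyamine and branched-chain enzymes 3 of 14 fell and 1 rose. Of these 14, 12 had mean signals at or above the probe-set median, and their calls are near the 27.9% of all such genes. Odc1, which makes putrescine from ornithine, was 1.73-fold lower, Srm, spermidine synthase, 1.46-fold lower, and Asl 1.29-fold lower, and Bcat2 was 1.42-fold higher.

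Of these enzymes Gclm, Gss, Gsr, Chac1, Gldc, Shmt1, Phgdh, Aldh18a1 and Odc1 kept their calls in limma whichever array was left out. Gclc and Oat lost theirs without either Dicer-deficient array (adjusted p from 0.0563 to 0.109). Without either of these or wild-type array 2, Got2, Bcat2 and Asl lost theirs (0.0669 to 0.153). Cbs did so without wild-type array 1 or 2 or either Dicer-deficient array (0.0590 to 0.163), Prodh without wild-type array 2 or 3 or either Dicer-deficient array (0.0502 to 0.162), and leaving out wild-type array 2 or Dicer-deficient array 1 did so for Srm (0.0694 to 0.100). The other 3 genes of the glycine and serine list that fell, Shmt2, Psph and Gcat, were less firm: Shmt2 lost its call without either Dicer-deficient array (0.0911 to 0.186), Gcat without these or the first or the second wild-type array (0.0692 to 0.156), and Psph without any 1 of the 5 (0.0643 to 0.302).

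**Figure D4:**
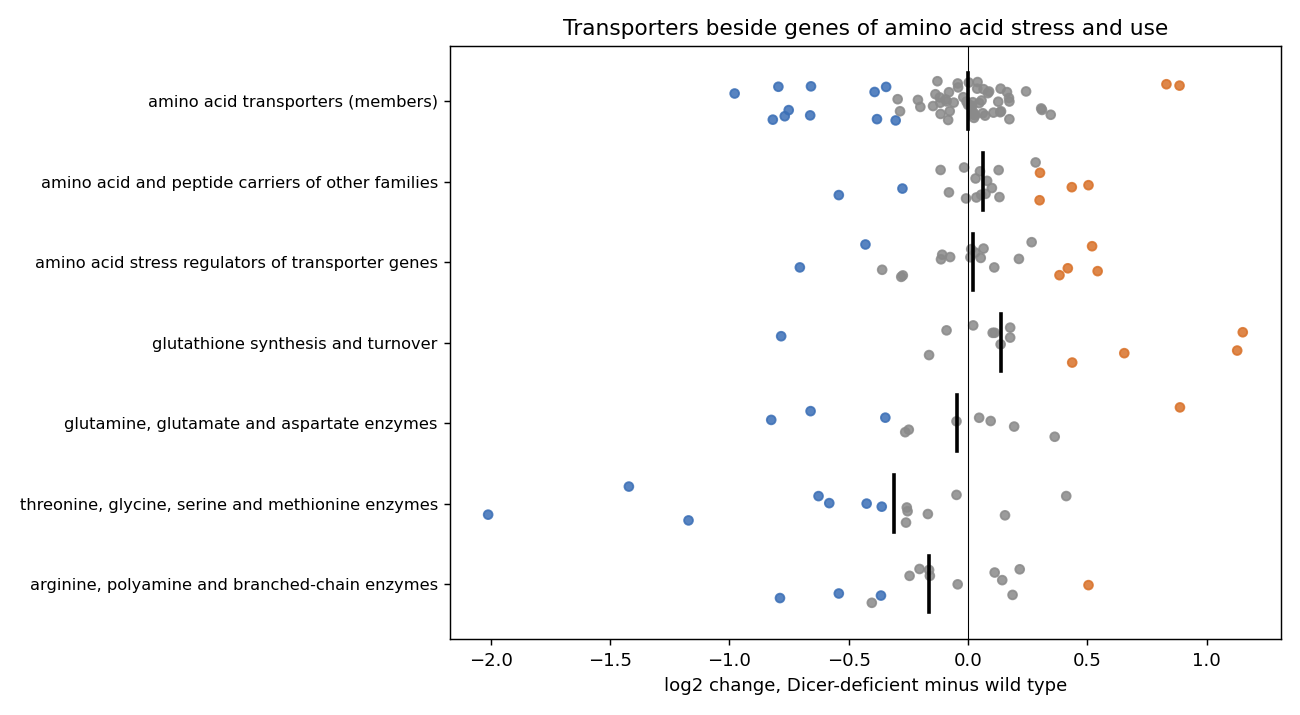
Log2 change (Dicer-deficient minus wild type, horizontal axis) of the 64 members and of the genes of 6 other lists, 1 point a gene, blue where called lower, orange where called higher and grey where not called, with a black bar at each list's median. Vertical scatter within a list has no meaning. The medians lie between -0.31 and 0.14, and that of the members is 0.00.

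Markers of ES cells and of other cell types were read on the same arrays. The mean log2 signal over 10 ES cell markers was 10.49 to 10.69 on the wild-type arrays and 10.27 to 10.51 on the Dicer-deficient ones. Both groups thus carried them, with 3 lower and 0 higher in limma. Klf4 (-0.95), Esrrb (-0.72) and Tdgf1 (-0.70) fell, and the other 7 had changes from -0.195 to 0.255. All 10 had mean signals at or above the probe-set median, where 14.4% of all genes were called lower. The call of Tdgf1 was kept whichever array was left out. Without wild-type array 2 the calls of Esrrb and Klf4 were lost (limma adjusted p = 0.0534 and 0.0914). That of Klf4 was also lost without wild-type array 1 or 3 (0.0883 and 0.0504). Without Dicer-deficient array 2 the calls of Esrrb and Klf4 were lost too, with changes of -0.55 and -0.59. Over 10 trophectoderm markers the mean log2 signal was 6.04 to 6.16 against 6.33 to 6.345, with a median change of 0.05. Krt8 (1.54), Gata3 (1.23) and Krt18 (0.49) rose and 0 fell in limma, while Eomes and Ascl2 had changes of -0.49 and -0.48, with both Dicer-deficient values below the wild-type range. Over 10 primitive endoderm markers it was 5.485 to 5.63 against 5.315 to 5.32, with a median change of -0.02. The laminin genes Lama1 (-1.11) and Lamb1 (-1.42) fell, and the other 8, Gata4 and Gata6 among them, had changes from -0.09 to 0.18. Over 9 mesoderm markers it was 5.46 to 5.62 against 5.78 to 5.80, with 4 higher and 0 lower in limma. Those higher were Kdr (0.84), Gsc (0.51), Evx1 (0.44) and Snai1 (0.31), and the other 5 had changes from 0.005 to 0.10. Over all genes tested 8.48% were called higher and 8.60% lower. Kdr and Evx1 had means under the probe-set median, so the sizes of their changes are uncertain. All 4 calls were lost without wild-type array 2 (limma adjusted p from 0.0532 to 0.155), and all 4 without Dicer-deficient array 2. Those of Gsc, Evx1 and Snai1 were also lost without Dicer-deficient array 1. Evx1 and Snai1 lost theirs without wild-type array 1 as well (0.102 and 0.123), and Evx1 without wild-type array 3 (0.0661). The mean levels of feeder fibroblast and neural markers overlapped between the groups. Yet Vim (0.83) rose and Fn1 (-0.46) fell among the first, and Pax6 (0.955) and Map2 (0.45) rose and Olig2 (-0.45) fell among the second. Map2 on every array and Pax6 on the wild-type arrays read under the probe-set median, so the sizes of their changes are uncertain. Krt8, Gata3, Lamb1 and Pax6 kept their calls whichever array was left out. Leaving out Dicer-deficient array 2 ended the call of Vim (adjusted p = 0.0565 in limma) and those of Lama1, Krt18, Fn1, Map2 and Olig2. Of the last 5, all but Fn1 were also lost without Dicer-deficient array 1, all but Lama1 without the second wild-type array, Krt18, Fn1 and Olig2 without the first, and Fn1 without the third (0.0684 to 0.306). The part of these changes in those of the transporters was not tested, and in bulk cultures fewer cells of a type and less RNA per cell cannot be told apart.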

How the data were processed

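Total RNA from 3 wild-type and 2 Dicer-deficient asynchronous ES cell cultures was labelled for Affymetrix whole-transcript arrays, per the labels' protocols. The authors deposited 1 table of normalized log2 signals for 35556 probe sets. The background correction, summarisation, normalization and log base are not given in the sources used here. The values were read as log2 because they are positive, span the range of a 16-bit scanner and have array medians of 5.39 to 5.45. Another base would rescale every change but no p-value of a fit without a fold threshold. The folds, and the calls with a 2-fold minimum or treat, rest on the log2 reading. Probe sets were named by the platform annotation, which can be old: 21789 had 1 symbol, 1621 several and 12146 none, and only the first were used. For a gene with several probe sets (2 members, Slc38a1 and Slc38a9) that with the highest mean was taken. All 64 members matched the GRCm38.p6 gene table by gene identifier, with 0 symbols changed. Values of different probe sets were not ranked against each other.

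Limma 3.58.1 in R 4.3.3 (lmFit, eBayes, no covariate) was fitted to 19939 genes, two-sided, with Benjamini-Hochberg adjustment at 0.05, on 3 residual and 4.55 prior degrees of freedom. SDs are between arrays and SEs are moderated. With 3 and 2 arrays there are 10 possible splits, so an exact permutation p is at least 0.1 and none is printed. The members and lists were chosen with earlier results of these data known. Named genes are all called members, 26 fixed members, Dicer1 and up to 4 called genes of each other list. Those beyond 4, named to spell out a small count, and single genes given without a call (Eif2ak4, Slc6a4 and members of families not called) were chosen after their values were seen. Alternatives concerned the scaling (quantile, median), the moderation (intensity trend, robust), array weights, the block for replicate number, dim genes, averaged probe sets, single arrays left out, and calls with a 2-fold minimum or treat at 1.2-fold. The fit was tested on simulated data. No detection call was used here, and a change to or from a signal under the probe-set median is uncertain in size.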

Additional observations from a re-analysis of the deposited data

How the results depend on the processing

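The 13 member calls were all kept when arrays were quantile normalized again, centred on their median, given an intensity trend, robust moderation or array weights, or averaged over probe sets of 1 gene. With dim genes left out Slc43a2 was not in the fit and the other 12 were kept. Members called higher went from 2 to 5 with array weights and to 0 with the replicate block, a 2-fold minimum or treat, and those called lower from 11 to 4 with the block, 0 with the 2-fold minimum and 4 with treat. With each array left out they ran from 0 to 4 and from 2 to 9. The members' median change of 0.00 was -0.13 with dim genes left out, which leaves 26 members, and ranged from -0.0375 to 0.025 over the fits that lacked 1 array.

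Over all genes, 1690 were called higher and 1714 lower. These became 477 and 417 with the replicate block, 307 and 151 with the 2-fold minimum, and 655 and 489 with treat, and ran from 536 to 1396 and from 434 to 1560 with each array left out. Arrays of equal number had deviations from their group means that correlated by 0.05 and 0.01. With 2 Dicer-deficient arrays, whose deviations are opposite, these values are not independent. They cannot exclude a pairing that acts on some genes, and the array titles give only the shared number. The block kept 4 of the 13 member calls, those of Slc1a3, Slc1a5, Slc43a1 and Slc7a5. The number of arrays limits the precision, and no result changed its direction under these alternatives among the called members.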
